A study of Mus musculus with 8 samples.

Results

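Apoe, Clu, Cst3, Sparcl1, Sparc, Htra1, Mfge8 and Cpe encode proteins that astrocytes and neural stem cells (NSCs) release or load into secretory vesicles. The set is defined by gene symbol alone, and each of the 8 names matched 1 of the 32285 genes counted. Together their transcripts made up 24269 of every 1000000 non-mitochondrial UMIs (unique molecular identifiers, 1 per captured RNA molecule) in mitochondria-rich barcodes, against 7254 in nucleus-like barcodes. 7 of the 8 were lower in nucleus-like barcodes, as were 39.7% of all genes tested, and Htra1 did not pass the test. Between genotypes, Htra1 was called lower in mitochondria-rich barcodes of Tsc2mut/mut mice, and none of the other 7 genes passed the test. Of all genes tested there 0.317% were called and 0.158% were called lower. The Htra1 call was lost with a minimum of 500 genes per barcode. Scaled to NSC/astrocyte marker genes, which were also lower on average, Htra1 gave the smallest exact permutation p that 4 against 4 mice allow (0.0286). It did not pass after adjustment over 10 tests (adjusted p = 0.0714). At that smallest p, passing rests on the other tests adjusted with it, so this test does not decide.

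Secreted proteins of this kind are translated at the rough endoplasmic reticulum, so most of their mature mRNA lies in the cytoplasm, while the nucleus holds new and partly spliced transcripts. Apoe and Clu are apolipoproteins that carry cholesterol and phospholipid between cells, and astrocytes are the main brain source of Apoe. Sparc and Sparcl1 are matricellular glycoproteins that act on cell adhesion and on synapse formation. Htra1 is a secreted serine protease, and Cst3 (cystatin C) inhibits cysteine proteases such as cathepsins. Mfge8 bridges phosphatidylserine on dying cells to integrins on phagocytes, and Cpe (carboxypeptidase E) trims prohormones in dense-core vesicles.

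The libraries came from the ventricular-subventricular zone (V-SVZ), the niche of NSCs along the lateral ventricle, of 4 Tsc2wt/wt and 4 Tsc2mut/mut mice at postnatal day 90, with 1 library per mouse. All animals carried a Nestin promoter-driven, tamoxifen-inducible Cre (Nestin-CreERT2) and a Rosa26 CAG-tdTomato reporter and had received 4-hydroxytamoxifen as pups. In Tsc2mut/mut mice both conditional Tsc2 alleles could recombine, which removes an inhibitor of the mTOR kinase. tdTomato-positive nuclei were sorted with doublets gated out and captured by 10x Genomics 3′ chemistry, so the sort, and not a cell type, set what entered the libraries.

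Libraries held 11182335 to 36773832 UMIs in 60000 barcodes each. Barcodes with at least 300 genes were called nucleus-like where mitochondrially encoded (mt-) genes gave under 30% of UMIs and mitochondria-rich otherwise. There were 4475 nucleus-like barcodes (264 to 1213 per mouse, median 1646.5 to 3431.5 UMIs) and 33406 mitochondria-rich barcodes (1602 to 8940 per mouse, median 860 to 1304.5 UMIs). A further 188560 barcodes, called low-gene barcodes, had at least 100 and under 200 genes, and 112774, called mid-gene barcodes, had at least 200 and under 300. Any 2 libraries shared 917 to 1058 barcode sequences among all barcodes, but 1 to 15 among those kept. Tsc2 stood at 14.0 to 19.9 CPM (UMIs per 1000000 UMIs of genes other than mt- genes) in nucleus-like barcodes of Tsc2wt/wt mice and 9.53 to 22.8 in Tsc2mut/mut mice (log2 fold change -0.00, adjusted p = 0.999, edgeR quasi-likelihood test). A 3′ count does not report the deletion of an internal exon, so this does not check the labels. The library of Tsc2mut/mut replicate 4 stood apart, since 179 of its 272 nucleus-like barcodes were choroid plexus-like, and results that rest on it are given with and without it.

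On GRCm38 the members lie on 6 chromosomes. Apoe is at chr7:19696109-19699188 on the minus strand, Mfge8 at chr7:79133768-79149060 on the minus strand and Htra1 at chr7:130936111-130985660 on the plus strand. Cst3 (chr2:148871722-148875692), Sparcl1 (chr5:104079111-104113733), Cpe (chr8:64592542-64693054) and Sparc (chr11:55394500-55423183) are on the minus strand, and Clu (chr14:65968483-65981547) is on the plus strand. Their spans run from 3.08 kb for Apoe to 100.5 kb for Cpe. Htra1 overlaps Fgfr2 and Sparcl1 overlaps Gm26703, each on the opposite strand. Whether the counting used strand is not given in the sources used here, and without strand such reads cannot be told apart.

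RefSeq promoter windows on GRCm38.p6 were at hand for 5 members, Apoe, Cst3, Sparc, Htra1 and Mfge8. 3 windows on chromosome 7 are shown, those of Htra1, of the more abundant lipid carrier Apoe, and of Mfge8, each written 5′ to 3′ on the gene's strand and ending where the gene begins in GENCODE M21. The Htra1 stretch is chr7:130935953-130936110, that of Apoe chr7:19699189-19699438 and that of Mfge8 chr7:79149061-79149310. Capitals mark the GC box, GGGCGG on either strand.
Htra1: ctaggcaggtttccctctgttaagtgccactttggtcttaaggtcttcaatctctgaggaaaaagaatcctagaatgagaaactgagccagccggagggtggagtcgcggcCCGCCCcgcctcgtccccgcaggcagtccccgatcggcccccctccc
Apoe: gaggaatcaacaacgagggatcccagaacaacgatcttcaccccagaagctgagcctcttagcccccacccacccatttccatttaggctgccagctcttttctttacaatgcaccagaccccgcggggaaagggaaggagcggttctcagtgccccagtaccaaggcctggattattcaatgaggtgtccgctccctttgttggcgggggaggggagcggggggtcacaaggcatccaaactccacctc
Mfge8: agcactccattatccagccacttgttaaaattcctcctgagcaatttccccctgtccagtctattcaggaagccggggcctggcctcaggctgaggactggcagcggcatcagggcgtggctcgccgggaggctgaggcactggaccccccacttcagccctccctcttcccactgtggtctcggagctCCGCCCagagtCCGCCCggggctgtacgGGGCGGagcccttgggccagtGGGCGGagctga
The Mfge8 window holds 4 GC boxes, the Htra1 window 1 and the Apoe window none. 32.7% of 32851 RefSeq windows of 250 bases hold a GC box. The E-box CACGTG (6.02% of windows), the AP-1 motif TGANTCA (6.75%) and the STAT motif TTCNNNGAA (7.02%), searched on both strands, were in none of the members' windows, and no 2 matches overlapped. A match of letters is a description and not a site of binding.

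The first question was how these transcripts divide between nucleus-like and mitochondria-rich barcodes of the same library. Levels below are in CPM, from UMIs summed per mouse, and an error is an SD over 8 mice unless stated. In sums of this kind, fewer cells that express a gene and less of its RNA per cell cannot be told apart. Apoe stood at 2022, 1752, 2796 and 2116 in nucleus-like barcodes of the 4 Tsc2wt/wt mice and at 1768, 1947, 2177 and 3267 in those of the 4 Tsc2mut/mut mice. In mitochondria-rich barcodes the same mice gave 8312, 8881, 8515 and 8570, then 7717, 7463, 9509 and 7725. Every mouse was higher in mitochondria-rich barcodes, by 2.36- to 5.07-fold, and the 2 ranges did not overlap.

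Clu, the other lipid carrier, averaged 791 ± 352 in nucleus-like and 1644 ± 187 in mitochondria-rich barcodes and was higher in the latter in 7 of 8 mice. The exception was Tsc2mut/mut replicate 4, with 1496 against 1394. Cst3 averaged 1879 ± 255 against 7592 ± 741, Sparcl1 567 ± 196 against 1949.6 ± 84.0, and Sparc 169 ± 33.2 against 376 ± 141. Mfge8 averaged 117 ± 34.2 against 248 ± 36.7 and Cpe 1289 ± 487 against 4006 ± 416, and both were higher in mitochondria-rich barcodes in 8 of 8 mice, as were Cst3, Sparcl1 and Sparc. Htra1 went the other way in 7 of 8 mice, with 211 ± 91.3 in nucleus-like and 117 ± 30.1 in mitochondria-rich barcodes.

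With mouse as a block and p-values adjusted over 11099 genes (edgeR quasi-likelihood test), 7 members were lower in nucleus-like barcodes and none was higher. Of all genes tested 39.7% were lower, 40.1% higher and 79.8% called in either direction. The log2 fold change was -2.62 (SE 0.24) for Cst3, -2.53 (SE 0.26) for Apoe, -2.48 (SE 0.24) for Sparcl1 and -2.37 (SE 0.27) for Cpe. It was smaller in size for Clu at -1.77 (SE 0.29), Mfge8 at -1.71 (SE 0.19) and Sparc at -1.68 (SE 0.20). Htra1 did not pass the test, at 0.09 (SE 0.23, adjusted p = 0.736, 95% interval -0.36 to 0.53). The median of the 8 members was -2.07 and that of all genes tested -0.01. Scaling by library total alone moved the median of all genes by 0.62 and put Htra1 above its mitochondria-rich level (0.73, adjusted p = 0.0276), while the other 7 stayed lower, between -1.99 and -1.05. Htra1 was also called higher with a threshold of 40% mt- UMIs (0.51, adjusted p = 0.0130).

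**Figure D1:**
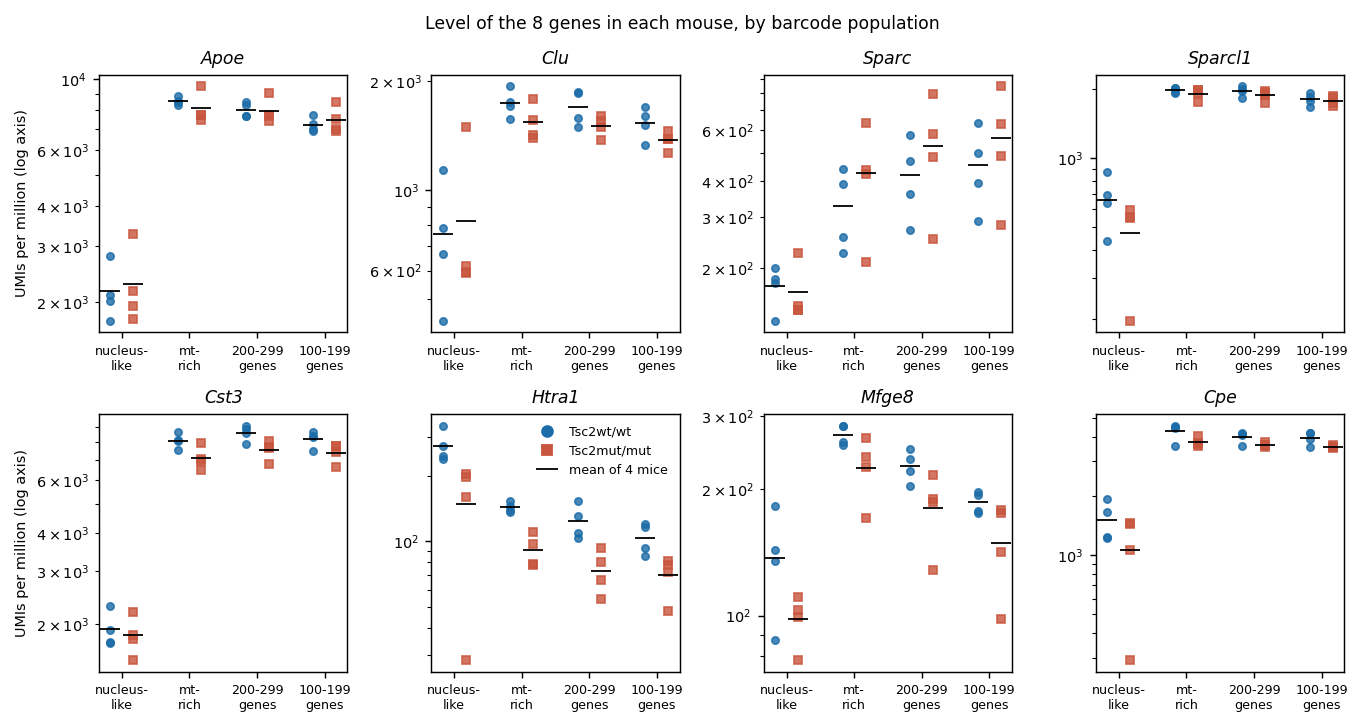
Level of each of the 8 genes (CPM, log axis) in each mouse, for nucleus-like barcodes, mitochondria-rich barcodes and mid-gene and low-gene barcodes, with Tsc2wt/wt and Tsc2mut/mut mice as separate points. Apoe is lowest in nucleus-like barcodes in every mouse, while Htra1 is higher there than in mitochondria-rich barcodes in 7 of 8 mice.

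The length of the gene moved with this contrast across all genes. The median log2 fold change was -1.32 over 2306 genes that span under 10 kb, -0.42 over 3333 genes of 10 to 30 kb, 0.39 over 2165 genes of 30 to 60 kb and 1.07 over 2063 genes of 60 to 150 kb. Apoe and Cst3 belong to the shortest class, Clu, Sparc and Mfge8 to the next, Sparcl1 and Htra1 to the third and Cpe to the fourth. 7 members therefore lay below the median of their own length class, with Cpe the farthest at -2.37 against 1.07, and Htra1 at 0.09 against 0.39 was also below its class. The part of gene length in the members' values was not tested. Fgfr2, which overlaps Htra1, was higher in nucleus-like barcodes by 2.09 (SE 0.29, adjusted p = 1.88e-05).

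**Figure D2:**
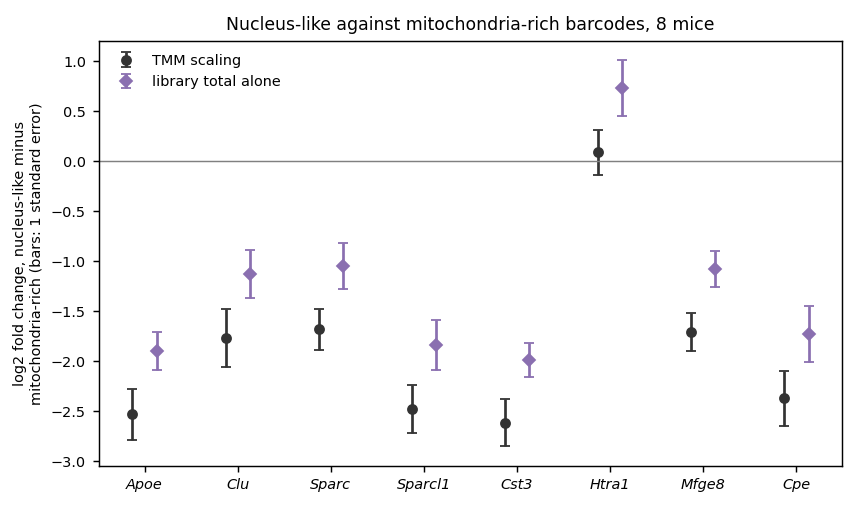
Log2 fold change between nucleus-like and mitochondria-rich barcodes for the 8 genes (points, with bars of 1 standard error over 8 mice), under TMM scaling (circles) and under scaling by library total alone (diamonds). With TMM scaling 7 genes lie between -2.62 and -1.68 and Htra1 at 0.09.

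Other genes of the same pathways were followed as lists, and their medians did not share 1 direction. Counts per list are to be read against all genes tested, of which 40.1% were called higher in nucleus-like barcodes and 39.7% lower. Of 14 tested lipid carriers, lipoprotein receptors and lipid export genes, 6 were higher in nucleus-like barcodes and 3 lower, with a median of 0.19. The phospholipid transfer protein Pltp rose by 3.37 and the HDL receptor Scarb1 by 2.40, while the apolipoprotein Apoc1 was at -2.06. Of 9 matricellular and matrix genes, 6 were higher and 1 lower (median 1.21), with the proteoglycans Vcan at 2.68 and Ncan at -2.34. Of 13 cathepsins, protease inhibitors and secreted proteases, 4 were higher and 5 lower (median -0.24). Cst6, a cystatin like Cst3, was at -4.05, the metalloprotease inhibitor Timp4 at -2.67 and the protease Adamts1 at 2.57.

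Of 10 phagocytosis genes, 6 were higher and 2 lower (median 1.12), beside the same 40.1% and 39.7% of all genes. Edil3, a relative of Mfge8, was at 2.97 and the receptor Mertk at 2.86. Neuropeptide processing genes, the group of Cpe, had 2 of 10 higher and 7 lower and a median of -2.32. Pcsk1n, an inhibitor of prohormone convertase, was at -4.28 and the granins Chgb and Vgf at -3.86 and -3.36. Of 10 other secreted astrocyte products, 6 were higher and 4 lower (median 0.89), with the glypican Gpc6 at 3.80 and Fjx1 at -2.31. The members' median of -2.07 was thus nearer to that of the neuropeptide list than to those of the other 5 lists.

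Low-gene barcodes held the members at nearly the levels of mitochondria-rich barcodes, with 22883 CPM over the 8 genes. In the same kind of test over 10798 genes, 4 members were lower and 1 higher than in mitochondria-rich barcodes, where 6.64% of all genes were lower, 8.05% higher and 14.7% called in either direction. Mfge8 was lower by a log2 fold change of -0.53 (SE 0.04), Htra1 by -0.39 (SE 0.05), Apoe by -0.14 (SE 0.03) and Clu by -0.13 (SE 0.03). Mfge8, Htra1, Apoe, Clu, Sparcl1 and Cpe were each lower in 8 of 8 mice. Sparc was higher by 0.47 (SE 0.04), also in 8 of 8 mice, from 376 ± 141 to 507 ± 192. Cst3 (0.08), Sparcl1 (-0.08) and Cpe (-0.05) did not pass the test, and with scaling by library total alone Sparcl1 (-0.12) and Cpe (-0.09) did.

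The most abundant members took similar shares of the set in both, and Sparc and Mfge8 did not. Apoe gave 34.4% ± 1.41 of the 8 genes' UMIs in mitochondria-rich barcodes and 32.1% ± 2.17 in low-gene barcodes, and Cst3 31.2% ± 1.35 and 34.0% ± 1.53. Sparc went from 1.56% to 2.21% and Mfge8 from 1.02% to 0.733%. Htra1 gave 2.94% ± 1.27 in nucleus-like barcodes, 0.479% ± 0.100 in mitochondria-rich barcodes and 0.379% ± 0.0971 in low-gene barcodes. Malat1, a nuclear non-coding RNA, was lower in mitochondria-rich than in nucleus-like barcodes in 8 of 8 mice, at 763 ± 364 CPM. Malat1 was 2.11-fold and the nuclear RNA Xist 2.03-fold higher in low-gene than in mitochondria-rich barcodes, each in 7 of 8 mice. Free RNA, debris and cytoplasm carried with nuclei were not tested as sources.

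Cell types were taken from clusters built without the members and named from marker lists. A level in a class against another is a description with no test, because clusters come from the same counts. Values are means over mice with at least 10 barcodes in the class. Nucleus-like barcodes fell into 1489 NSC/astrocyte-like, 678 microglia-like, 645 oligodendrocyte-like, 548 choroid plexus-like, 314 ependymal-like and smaller named classes. Another 417 (9.32%) stayed unnamed, with 25.4% in Tsc2wt/wt replicate 3 and 16.2% in Tsc2mut/mut replicate 4. Orders of classes below are among named classes only. The NSC/astrocyte-like class joined 2 unlike clusters. Cluster 0 held 957 barcodes with a median of 3260 UMIs and 6.28% mt- UMIs, and cluster 3 held 532 with a median of 737.5 UMIs and 24.1%. In cluster 0, 10 of 16 NSC/astrocyte markers were raised, with a mean log2 fold of 0.68. In cluster 3, 15 of 16 were raised, with a mean of 2.01, and the excitatory neuron list came second at 1.26.

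The lipid carriers separated these clusters. Apoe stood at 16984 ± 2311 in cluster 3 (n = 7 mice) and at 1469 ± 830 in cluster 0 (n = 8), and the ranges did not overlap. Clu stood at 4159 ± 1064 and 299.4 ± 131. Malat1 was 2895 in cluster 3 and 40524 in cluster 0, so the cluster with more Apoe and Clu had less nuclear RNA. Choroid plexus-like nuclei, the epithelium that makes cerebrospinal fluid, came next to cluster 3 for Apoe (3066 ± 521, n = 7) and for Clu (1825 ± 353), and for Clu they did not overlap with the next class, ependymal-like nuclei at 369 ± 174. For Apoe the classes below choroid plexus, from cluster 0 down to inhibitory neuron or neuroblast-like nuclei at 804 ± 533, overlapped each with its neighbour.

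The protease inhibitor Cst3 and the protease Htra1 had different orders. Cst3 stood at 13830 ± 1719 in cluster 3, 5331 ± 1484 in microglia-like and 2026 ± 311 in choroid plexus-like nuclei, with no overlap between these neighbours or with the next class. In cluster 0, the larger NSC/astrocyte-like cluster, Cst3 stood at 876 ± 532, rank 7 by mean among the classes ordered. In microglia-like nuclei Cst3 made up 66.7% ± 9.64 of the 8 genes' UMIs. Htra1 was the only member at about the same level in both NSC/astrocyte-like clusters, 550 ± 198 in cluster 3 and 546 ± 114 in cluster 0. The next named class, oligodendrocyte progenitor-like nuclei at 104 ± 15.8 (n = 2 mice), did not overlap with cluster 0. Unnamed clusters 8 and 10 are not in this order, and their Htra1 detection is given below. Htra1 was lowest in microglia-like (20.4 ± 21.3) and choroid plexus-like nuclei (5.20 ± 5.03).

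Among the matricellular genes, Sparc was highest in endothelial-like (1079 ± 161, n = 5), then microglia-like (687 ± 241) and cluster 3 nuclei (410 ± 109), and these neighbours overlapped. Cluster 0 nuclei held 36.5 ± 16.2. Sparcl1 stood at 3426 ± 609 in cluster 3, 1120 ± 191 in endothelial-like and 888 ± 106 in cluster 0 nuclei, and was lowest in choroid plexus-like nuclei at 64.0 ± 38.8. Mfge8 stood at 1060 ± 354 in cluster 3 and 195 ± 186 in cluster 0, whose ranges overlapped because of Tsc2mut/mut replicate 4 at 643, from 12 barcodes. Cpe was at 3501 ± 463 in cluster 3, 2715 ± 531 in cluster 0 and 1275 ± 242 in ependymal-like nuclei, and was lowest in choroid plexus-like nuclei at 160 ± 69.4.

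**Figure D3:**
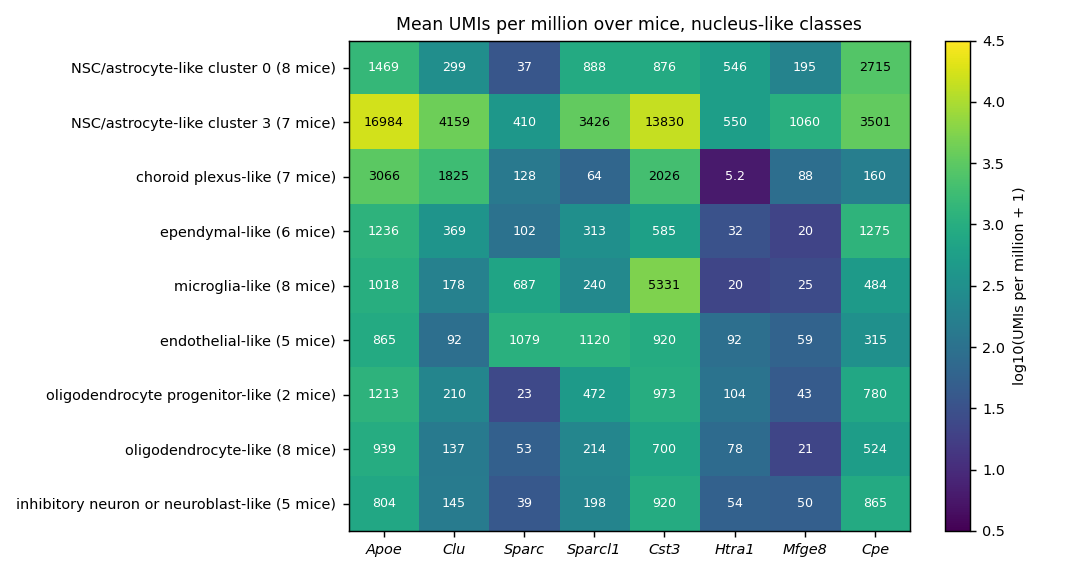
Mean level of the 8 genes (columns, colour in log10 of CPM plus 1) in the classes of nucleus-like barcodes (rows, with the number of mice that had at least 10 barcodes), with the mean printed in each cell. Among the classes shown, cluster 3 has the highest mean of every gene but Sparc, and Htra1 is at nearly the same level in clusters 0 and 3. Unnamed clusters are not shown.

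In mitochondria-rich barcodes the classes differed less. Apoe stood at 11577 ± 869 in the NSC/astrocyte-like class of 8480 barcodes and still at 6977 ± 899 in striatal projection neuron-like barcodes, 6999 ± 847 in microglia-like and 7046 ± 863 in oligodendrocyte-like barcodes. Cpe was between 3644 and 4147 in these 4 classes. Cst3 was again high in microglia-like barcodes, at 10817 ± 775. Htra1 and Mfge8 were the members most raised in NSC/astrocyte-like barcodes, with 222 ± 60.4 against 63.5 to 80.6 and 467 ± 63.5 against 140 to 161 in the other 3 classes. 18211 mitochondria-rich barcodes, 54.5%, stayed unnamed.

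Detection per barcode gave a similar picture after each barcode was thinned to 300 UMIs, which no kept barcode fell below. Apoe was seen in 35.0% of cluster 0, 93.5% of cluster 3 and 93.1% of NSC/astrocyte-like mitochondria-rich barcodes (91.9%, 97.7% and 98.6% unthinned). In mitochondria-rich barcodes it was also seen in 84.9% of those called striatal projection neuron-like, and neurons are not a main source of Apoe. Median depth was 878 to 1577.5 UMIs over mice in the NSC/astrocyte-like and 910 to 1572 in the striatal projection neuron-like class. The source of Apoe UMIs in the latter was not tested. Htra1 was seen in 14.6% of cluster 0 and 12.9% of cluster 3 barcodes after thinning (69.5% and 24.2% unthinned), against 0.565% of choroid plexus-like and 0.575% of microglia-like nuclei (2.37% and 2.36% unthinned). In unnamed clusters 8 (155 barcodes) and 10 (96 barcodes) it was seen in 9.37% and 9.89% (51.6% and 60.4% unthinned). Of the 96 barcodes in cluster 10, 56 came from Tsc2wt/wt replicate 3, so its value rests mostly on 1 library. Oligodendrocyte progenitor-like nuclei gave 3.19% (19.2% unthinned). NSC/astrocyte was the best-scoring marker list in cluster 8, with 6 of 16 markers raised and a mean log2 fold of 0.264, below the 0.3 needed for a name. It was the second in cluster 10, at 0.011. Htra1 was thus seen beyond the 2 clusters named NSC/astrocyte-like, and whether clusters 8 and 10 belong to that type was not tested. Median depth over mice was 983.5 to 5386 UMIs in cluster 0, 669 to 805.5 in cluster 3, 4046 to 11017 in choroid plexus-like and 861.5 to 1601 in microglia-like nuclei.

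The genes whose mean level over 8 nucleus-like classes was most like that of each member were listed, as Pearson's r on log2(CPM + 1) among 8030 genes. The 8 points share libraries and differ in depth, so these values describe and test nothing. Apoe was nearest to Kcnk1 (0.950), to Clu (0.944) and to Vcam1 (0.930), and Clu was the only member among the 3 nearest genes of another. Clu was nearest to Phyh (0.960), Cst3 to Phyhd1 (0.957), Sparcl1 to Tril (0.957) and Sparc to Ywhaz (0.963). Htra1 was nearest to Sycp2 (0.952), Farp2 (0.949) and Fgd6 (0.947), Mfge8 to Akt2 (0.913) and Cpe to Palld (0.974), Gli3 (0.949) and Plpp3 (0.946).

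The second question was whether the members differed between Tsc2wt/wt and Tsc2mut/mut mice. Htra1, the secreted protease, was lower in Tsc2mut/mut mice. In mitochondria-rich barcodes it stood at 153, 136, 139.6 and 145 in Tsc2wt/wt mice and at 97.2, 78.0, 110.2 and 79.0 in Tsc2mut/mut mice. All 4 Tsc2mut/mut mice lay below all 4 Tsc2wt/wt mice, which was so for 3.67% of the genes tested. Means were 143 ± 7.18 and 91.1 ± 15.5 (SD, n = 4 each), a log2 fold change of -0.64 (SE 0.11, 0.640-fold). The adjusted p of the edgeR quasi-likelihood test was 0.0016, rank 8 of 10097 genes, of which 0.317% were called and 0.158% were called lower.

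Without any 1 mouse in turn Htra1 stayed called, with log2 fold changes from -0.73 to -0.59 and a highest adjusted p of 0.0111. With a minimum of 500 genes per barcode it was not called (-0.52, adjusted p = 0.238). These p-values set the difference against the spread between mice of this experiment. The summed level of the 16 NSC/astrocyte marker genes in the same barcodes had a lower mean in Tsc2mut/mut mice (16854 CPM) than in Tsc2wt/wt mice (18779). The groups overlapped, at 15034 to 19147 and 17230 to 19506, and this difference was not tested. None of the 16 genes was at 0, and 3 were higher in Tsc2mut/mut mice. Fgfr2 did not differ beyond its error (0.01, SE 0.13, adjusted p = 0.985).

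Set against those markers, Htra1 gave 7.65 ± 0.296 UMIs per 1000 marker UMIs in Tsc2wt/wt and 5.38 ± 0.363 in Tsc2mut/mut mice, again with no overlap. A two-sided exact permutation test gave p = 0.0286, the smallest that 4 against 4 mice allow. After Benjamini-Hochberg adjustment over the 10 such tests made it was 0.0714, which did not pass. At that smallest p, passing rests on the other tests adjusted with it, so the adjusted value does not decide whether Htra1 differed on this scale. This scale was chosen after the data had been seen. Mfge8 on the same scale gave 14.4 ± 0.703 and 13.4 ± 1.83 (exact permutation p = 0.371, adjusted p = 0.413).

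The difference in Htra1 was as large within NSC/astrocyte-like mitochondria-rich barcodes. This class held markers of other types too. In Tsc2wt/wt mice excitatory neuron markers averaged 5739 CPM in it (6361 in all mitochondria-rich barcodes) and oligodendrocyte markers 4117 (5124). NSC/astrocyte markers averaged 27229 (18779). The difference is thus not placed in 1 cell type. In this class Htra1 stood at 298, 259.5, 288 and 258 in Tsc2wt/wt and 174, 147, 184 and 164 in Tsc2mut/mut mice. There was no overlap, which held in this direction for 3.8% of genes tested. The log2 fold change was -0.67 (SE 0.12, adjusted p = 0.0004, edgeR), where 0.495% of 6470 genes were called (0.309% higher and 0.185% lower), and it was called without each mouse in turn. The NSC/astrocyte markers were lower in this class too (mean 27229 CPM in Tsc2wt/wt and 23856 in Tsc2mut/mut mice, 3 of 16 higher) and the choroid plexus markers higher (93.0 and 316 CPM, 9 of 10 higher), and their part in the result was not tested. Per 1000 marker UMIs Htra1 gave 10.1 ± 0.602 and 7.01 ± 0.160 there, without overlap (exact permutation p = 0.0286, adjusted p = 0.0714). In mid-gene barcodes Htra1 stood at 153, 109, 104 and 130.1 against 80.0, 66.8, 92.8 and 54.3, a log2 fold change of -0.72 (SE 0.14, adjusted p = 0.0091, edgeR) where 0.256% of genes were called (0.137% higher and 0.12% lower). That call was lost without Tsc2wt/wt replicate 1 (-0.61, adjusted p = 0.0856).

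In low-gene barcodes Htra1 stood at 120.5, 93.0, 85.7 and 116 in Tsc2wt/wt and 78.1, 72.4, 81.3 and 48.1 in Tsc2mut/mut mice. The groups did not overlap, as for 4.02% of genes in this direction, but the log2 fold change of -0.54 (SE 0.13) did not pass (adjusted p = 0.116, edgeR), where 0.228% of 11846 genes were called (0.135% higher and 0.0929% lower). With no filter on low counts it did (-0.51, adjusted p = 0.0111). Htra1 thus had lower values in the barcodes with the fewest genes too, but was not called there in the main fit. A part of shared free RNA in the difference was not tested.

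**Figure D4:**
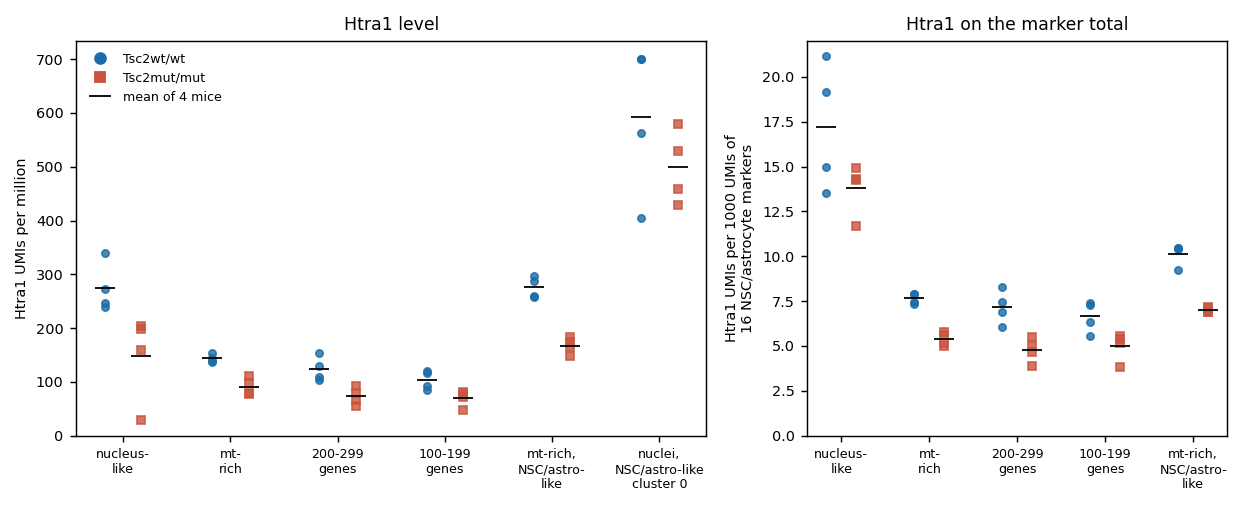
Htra1 in each mouse, as CPM (left) and as UMIs per 1000 UMIs of 16 NSC/astrocyte markers (right), for the barcode populations and NSC/astrocyte-like classes, with a bar at the mean of 4 mice. In mitochondria-rich barcodes Tsc2wt/wt mice lie at 136 to 153 and Tsc2mut/mut mice at 78.0 to 110.2 CPM.

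None of the other 7 members was called in mitochondria-rich barcodes. Mfge8 was nearest, at 259, 255, 283 and 284 in Tsc2wt/wt and 239.5, 227, 265 and 171 in Tsc2mut/mut mice, which overlapped (log2 fold change -0.26, SE 0.10, adjusted p = 0.258, edgeR). Within NSC/astrocyte-like mitochondria-rich barcodes Mfge8 was 545, 475, 527 and 518 against 454, 416, 444 and 355. These did not overlap, as for 3.8% of genes tested in this direction, and the difference of -0.27 (SE 0.11) did not pass (adjusted p = 0.3004, edgeR). Cst3 (-0.19), Cpe (-0.19), Clu (-0.18), Apoe (-0.09) and Sparcl1 (-0.05) had standard errors of 0.09 each. The 95% interval of the difference was -0.26 to 0.09 for Apoe and -0.23 to 0.12 for Sparcl1.

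In mitochondria-rich barcodes Sparc varied more between mice of 1 genotype, relative to its mean, than the other members. It stood at 440, 389.9, 255 and 225 in Tsc2wt/wt mice and at 211, 434, 421 and 631 in Tsc2mut/mut mice, so the groups overlapped widely (log2 fold change 0.38, SE 0.40, adjusted p = 0.769). The same mice were high and low in low-gene barcodes, from 282 in Tsc2mut/mut replicate 1 to 847 in Tsc2mut/mut replicate 4. Over the 8 members the median log2 fold change was -0.18, against 0.00 over all genes tested.

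In nucleus-like barcodes edgeR called 0 of 11283 genes between genotypes, members included, with 183 genes at an unadjusted p under 0.05, and DESeq2 called 2. Htra1 stood at 239, 339, 272 and 247 in Tsc2wt/wt and 204, 159.5, 198 and 28.6 in Tsc2mut/mut mice. The groups did not overlap, as for 1.27% of genes in this direction, and the log2 fold change was -0.88 (SE 0.42, adjusted p = 0.938). Without Tsc2mut/mut replicate 4, the mouse at 28.6, it was -0.62. NSC/astrocyte-like barcodes were 38.9% to 42.8% of nucleus-like barcodes in Tsc2wt/wt mice and 6.25% to 33.7% in Tsc2mut/mut mice, and the summed level of the 16 NSC/astrocyte markers was 11303 to 20103 against 2449 to 14309. The lowest Tsc2mut/mut value of each was that of replicate 4. Without it the Tsc2mut/mut mice lay at 28.2% to 33.7% and at 10705 to 14309. Split by cluster, the difference in the mean share of NSC/astrocyte-like barcodes lay mostly in cluster 3. Cluster 3 averaged 22.6% of nucleus-like barcodes in Tsc2wt/wt and 6.61% in Tsc2mut/mut mice, and the groups did not overlap. Cluster 0 averaged 18.4% and 17.9%, and the groups overlapped. These shares were not tested.

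The signs of Apoe, Clu and Cst3 in nucleus-like barcodes rested on the same library. They were 0.42 (SE 0.56), 0.54 (SE 0.66) and 0.22 (SE 0.50) with it and -0.23, -0.45 and -0.25 without it, and Sparc turned from 0.11 to -0.12. Choroid plexus markers, 10 genes of which none was at 0, summed to 12881 to 116500 CPM in Tsc2wt/wt mice and 44442 to 261920 in Tsc2mut/mut mice. The 261920 was Tsc2mut/mut replicate 4. Without it the Tsc2mut/mut mice lay at 44442 to 59478, inside the Tsc2wt/wt range. With it counted, 9 of the 10 genes had a higher mean in Tsc2mut/mut mice. Sparcl1 (-0.40), Mfge8 (-0.31) and Cpe (-0.47) had 95% intervals that took in 0.

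Within NSC/astrocyte-like nuclei edgeR again called 0 of 6391 genes, with 138 at an unadjusted p under 0.05, and DESeq2 called 1. Htra1 was at -0.35 (SE 0.27, adjusted p = 1.000) and the members' median at -0.42, against -0.05 over all genes. Tsc2mut/mut replicate 4, with 17 barcodes, stood apart in this class too, with choroid plexus markers at 32763 CPM against 38.3 to 298 in the other mice and NSC/astrocyte markers at 24379 against 31364 to 35767. Without it Htra1 was -0.31, Apoe -0.90, Clu -1.03 and Cst3 -1.02, none called. The make-up of the class differed between mice and leaned by genotype. Cluster 3 was 50.4%, 32.1%, 85.0% and 51.2% of it in Tsc2wt/wt and 19.5%, 38.6%, 24.0% and 29.4% in Tsc2mut/mut mice, which overlapped. The part of this mix in the values of the joined class was not tested. In cluster 0 alone the signs of Apoe (0.53), Clu (0.43), Cst3 (0.62), Sparcl1 (0.06), Sparc (0.63) and Mfge8 (0.90) were the opposite of those in the joined class, and Htra1 stayed lower at -0.34. Mfge8 there was 88.6 to 109 in Tsc2wt/wt mice and 199.2, 159.8, 168 and 643 in Tsc2mut/mut mice. These did not overlap, as for 1.97% of genes tested in this direction, and the test across genes was not passed (SE 0.26, adjusted p = 0.561, edgeR). The value of 643 came from 12 barcodes, and without that mouse Mfge8 was at 0.76 (adjusted p = 0.314).

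Other classes had fewer counts. In microglia-like nuclei, where 0.611% of 2128 genes were called (0.282% higher and 0.329% lower), Apoe had a log2 fold change of 0.93 (SE 0.30, adjusted p = 0.172, edgeR), at 467, 1186, 547 and 521 in Tsc2wt/wt and 1380.3, 811, 1958 and 1276 in Tsc2mut/mut mice. The overlap came from Tsc2wt/wt replicate 2, and without it Apoe was called (1.54, adjusted p = 0.0006), as were Sparcl1 (1.56, adjusted p = 0.0081) and Cpe (1.28, adjusted p = 0.0079). The count of genes called in that class rose from 13 to 158 without the same mouse. Leaving out any other mouse called no member there, so these calls rest on leaving out that mouse. Cst3, the main member in microglia-like nuclei, was at -0.02 (SE 0.20, 95% interval -0.42 to 0.38). Htra1 and Mfge8 were too low there to be tested.

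In oligodendrocyte-like nuclei, where 0.104% of 2893 genes were called (0.0691% higher and 0.0346% lower), Sparcl1 was at 1.14 (SE 0.38, adjusted p = 0.288, edgeR) and the other 5 members tested were between 0.45 and 0.85, while Sparc and Mfge8 were too low to be tested. Without Tsc2wt/wt replicate 2 the count called rose from 3 to 145 and 5 members were called higher: Apoe (1.38), Clu (1.15), Cst3 (1.28), Sparcl1 (1.98) and Cpe (1.35). Leaving out any other mouse called no member in this class, so these calls too rest on leaving out that mouse. No tested member was called between genotypes in microglia-like, oligodendrocyte-like or striatal projection neuron-like mitochondria-rich barcodes, and Htra1 was not tested in the last. There 0.207% of 1930, 0.382% of 1831 and 0% of 1773 genes were called, and the calls in the first 2 classes were all higher in Tsc2mut/mut mice. Whether the genotype difference itself differed between nucleus-like and mitochondria-rich barcodes was tested by an interaction term. edgeR called 0 of 11099 genes, with 338 at an unadjusted p under 0.05, and DESeq2 called 0. Htra1 had an interaction of -0.34 (SE 0.46, adjusted p = 0.853).

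**Figure D5:**
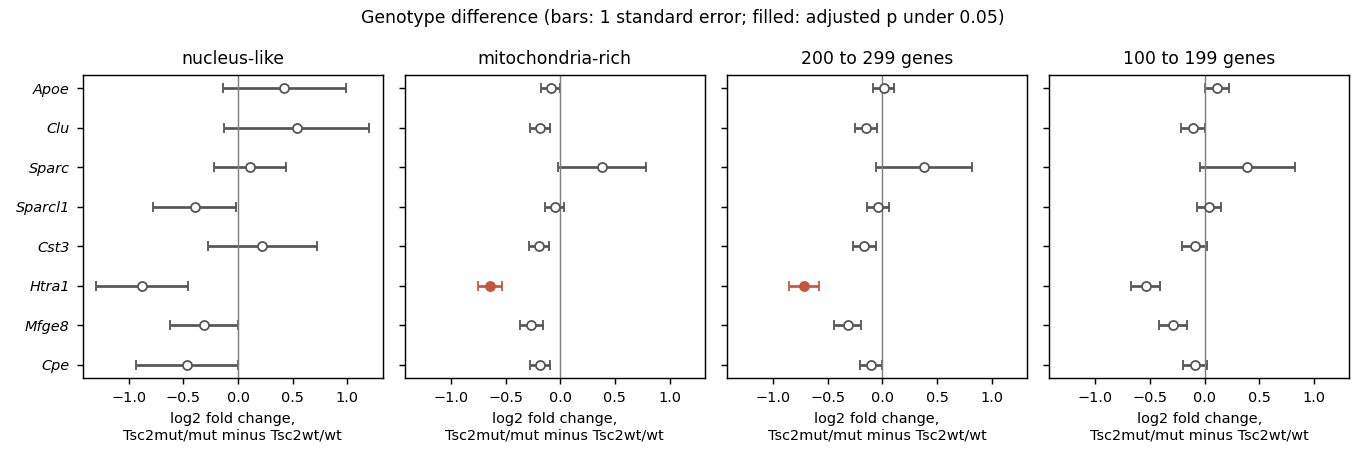
Log2 fold change between genotypes (Tsc2mut/mut minus Tsc2wt/wt) for the 8 genes, with bars of 1 standard error and filled points where the adjusted p is under 0.05, in nucleus-like, mitochondria-rich, mid-gene and low-gene barcodes. The filled points are Htra1 at -0.64 in mitochondria-rich and -0.72 in mid-gene barcodes.

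Among the pathway lists, 1 of 62 tested genes was called between genotypes in mitochondria-rich barcodes, where 0.317% of all genes were. Igfbp2, a secreted binding protein of insulin-like growth factors, was 125 ± 10.6 in Tsc2wt/wt and 89.0 ± 14.0 CPM in Tsc2mut/mut mice (log2 fold change -0.50, SE 0.11, adjusted p = 0.0339, edgeR). It was 1 of 9 tested genes of the list of other secreted astrocyte products, whose median was -0.16, and it was not called within NSC/astrocyte-like mitochondria-rich barcodes (-0.42, adjusted p = 0.119). None was called of 13 lipid genes (median 0.10), 7 matrix genes (0.22), 13 protease and inhibitor genes (-0.09), 10 phagocytosis genes (0.04) and 10 neuropeptide genes (-0.06). The integrin Itgav was at 0.50 (SE 0.13, adjusted p = 0.0788) and the granin Scg3 at -0.33 (SE 0.09, adjusted p = 0.115). In nucleus-like barcodes none of the 61 tested genes of the 6 lists was called.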

How the data were processed

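The authors aligned 3′ single-nucleus reads to GRCm38 with Cell Ranger set to return 60000 barcodes per library, and deposited raw UMI counts per gene and barcode. Seurat 4 appears in the submitters' processing notes. No normalized values were used here.

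UMI counts were summed per mouse over barcode sets, leaving out 13 mt- genes. Sums were fitted with edgeR 4.0.16 in R 4.3.3 (TMM, filterByExpr, robust quasi-likelihood test, Benjamini-Hochberg adjustment over all genes tested, threshold 0.05), with DESeq2 1.42.0 as an alternative. The mouse was the replicate (n = 4 per genotype). Precision is limited by 713509 to 2959110 non-mt- UMIs per mouse in nucleus-like and 1119571 to 4562609 in mitochondria-rich barcodes. Fits were tested on simulated data.

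Clusters were built with scanpy 1.11.5 and leidenalg 0.10.2 in Python 3.11.15 on 2000 variable genes (30 components, 20 neighbours, resolution 0.8), separately in each population and without the members. Clusters were named where 3 or more listed markers rose 1.5-fold, the type's mean log2 fold was above 0.3 with the next type at most 0.8 of it, and at least 1 of its markers (no fewer than of any other type) was among the 10 leading genes. Haemoglobin-led clusters were left unnamed by a rule added after the clusters had been looked at. The names are rebuilt and may differ from the study's. No doublet caller was run. The doublet gate at the sort came before droplet capture, and doublets formed at capture were not tested for. Leaving out the 5% of barcodes with the most UMIs was an alternative. Exact permutation tests used scipy 1.17.1. Gene positions are from GENCODE M21, which placed 32235 of 32285 genes.

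The members and lists were chosen with earlier results of these data known. Named genes were the 8 members, the 3 genes nearest to each by class profile among those with a mean of at least 20 CPM, and up to 4 examples per list by fold change or p. Scaling by library total, mid-gene barcodes, single clusters, mitochondria-rich classes, leaving out mice in the smaller classes and the marker scale were added after the data had been seen.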

Additional observations from a re-analysis of the deposited data

Results flagged for a closer look

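80 groups of 4 mice were examined for a sample far from the other 3, and chance alone gives such a sample in about 1 group in 20. 7 groups held such a sample. In nucleus-like barcodes of Tsc2mut/mut mice, replicate 4 had Clu at 1496 CPM against 593 to 617 in the others and Sparcl1 at 196 against 547 to 596, and replicate 2 had Sparc at 226 against 143 to 148. In mitochondria-rich barcodes Tsc2mut/mut replicate 3 had Apoe at 9509 against 7463 to 7725. Tsc2wt/wt replicate 2 had Cpe at 3609 against 4409 to 4562 in mitochondria-rich barcodes and at 3594 against 4089 to 4159 in mid-gene barcodes, and Apoe at 12354 against 12080 to 12116 in NSC/astrocyte-like mitochondria-rich barcodes. Causes were not tested.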

How the results depend on the processing

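Over settings other than leaving out a mouse, 434 of 464 member values kept their sign and their side of the threshold, 24 turned in sign, 5 gained and 1 lost a call, and 49 of 58 counts of called genes stayed within 1.5 times. The causes of these changes were not tested. Without a filter on low counts the genotype counts were 168 genes in mitochondria-rich barcodes (32 with it), 109 in low-gene barcodes (27) and 6 in NSC/astrocyte-like nuclei (0), and Htra1 in low-gene barcodes was called at -0.51. A minimum of 500 genes left 15 genes in mitochondria-rich barcodes and Htra1 at -0.52, not called. DESeq2 called 2 genes in nucleus-like barcodes, 1 in NSC/astrocyte-like nuclei (also 1 with its size factors in edgeR) and 761 between low-gene and mitochondria-rich barcodes (1586 in edgeR).

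The signs of small differences turned as follows. Scaling by library total alone gave Cst3 -0.066 and Sparc -0.074 in nucleus-like barcodes, Sparcl1 -0.024 in low-gene barcodes and Mfge8 0.033 in NSC/astrocyte-like nuclei. It also called Htra1 (0.73) between nucleus-like and mitochondria-rich barcodes, and Sparcl1 (-0.12) and Cpe (-0.09) between low-gene and mitochondria-rich barcodes. Sparcl1 was -0.032 in barcodes of at least 100 and under 150 genes. In NSC/astrocyte-like nuclei at a cluster resolution of 0.4 Apoe was 0.36, Clu 0.071, Cst3 0.24, Sparcl1 0.064, Sparc 0.34 and Mfge8 0.16. In cluster 0 alone these were 0.53, 0.43, 0.62, 0.058, 0.63 and 0.90, and in cluster 3 alone Sparc was 0.12. Htra1 between nucleus-like and mitochondria-rich barcodes was -0.17 without a filter, -0.053 with mt- genes kept, -0.077 at a threshold of 20% and 0.51, called, at 40%. The interaction of Mfge8 was 0.0099 without a filter and 0.37 at 20%.

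With a replicate block, 21 genes were called in mitochondria-rich barcodes, Htra1 among them at -0.67, and Mfge8 in NSC/astrocyte-like nuclei was 0.064. No pairing of mice by replicate number was seen, and with 4 mice per genotype the check below cannot exclude it. Deviations of same-numbered mice correlated at -0.62 to 0.34 in nucleus-like, -0.12 to -0.05 in mitochondria-rich and -0.11 to -0.06 in low-gene barcodes, and 1 of 12 numbers was the best match of its own.

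Leaving out 1 mouse at a time, counts of called genes ran from 0 to 0 in nucleus-like barcodes and the interaction and from 19 (without Tsc2wt/wt replicate 3) to 117 (without Tsc2mut/mut replicate 2) in mitochondria-rich barcodes, with 53 without Tsc2wt/wt replicate 2. They ran from 17 (without Tsc2wt/wt replicate 1) to 39 in low-gene barcodes, 15 (without Tsc2wt/wt replicate 2) to 38 in mid-gene barcodes, 0 to 4 (without Tsc2wt/wt replicate 3) in NSC/astrocyte-like nuclei, 0 to 2 in cluster 0 and 14 to 42 in NSC/astrocyte-like mitochondria-rich barcodes. They ran from 0 to 158 in microglia-like and 0 to 145 in oligodendrocyte-like nuclei, both highest without Tsc2wt/wt replicate 2. In microglia-like, oligodendrocyte-like and striatal projection neuron-like mitochondria-rich barcodes they ran from 2 to 15, 2 to 22 and 0 to 22. They ran from 8043 to 10048 between nucleus-like and mitochondria-rich and 1218 to 1644 between low-gene and mitochondria-rich barcodes.

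Member values that turned sign without 1 mouse ran as follows. In nucleus-like barcodes Apoe ran from -0.23 to 0.60, Clu from -0.45 to 0.86, Cst3 from -0.25 to 0.37 and Sparc from -0.12 to 0.23, each turning without Tsc2mut/mut replicate 4. In NSC/astrocyte-like nuclei Apoe ran from -0.90 to 0.12, Sparc from -0.81 to 0.039 and Mfge8 from -0.40 to 0.16. For the interaction Apoe ran from -0.16 to 0.42, Clu from -0.21 to 0.61, Cst3 from -0.069 to 0.36 and Mfge8 from -0.29 to 0.089. In microglia-like nuclei Cst3 ran from -0.25 to 0.16 and Sparc from -0.26 to 0.17, and in microglia-like mitochondria-rich barcodes Apoe from -0.13 to 0.022. In oligodendrocyte-like mitochondria-rich barcodes Sparcl1 ran from -0.13 to 0.029, Sparc from -0.18 to 0.30, Htra1 from -0.42 to 0.064 and Mfge8 from -0.29 to 0.051. Sparcl1 ran from -0.030 to 0.087 in low-gene, -0.086 to 0.018 in mid-gene and -0.038 to 0.14 in cluster 0 barcodes, and Apoe from -0.026 to 0.065 in mid-gene barcodes. Between low-gene and mitochondria-rich barcodes Cst3 was called without Tsc2wt/wt replicate 4 (0.09) and Sparcl1 without Tsc2mut/mut replicate 4 (-0.09).

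Depth limits the smaller classes most. A class was tested only where every mouse had at least 10 barcodes, apart from 2 alternatives for NSC/astrocyte-like nuclei. These were cluster 3 alone, where Tsc2mut/mut replicate 4 had 5 barcodes, and a cluster resolution of 1.6, where 7 mice had at least 10. Cluster 0 held 12 barcodes in Tsc2mut/mut replicate 4.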
